A study of Mus musculus with 11 samples.

Results

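The double knockout (DKO) was compared with the AnkG knockout (AnkGKO) to ask what targeting of Nfasc added where Ank3 was already targeted. The comparison took the 3 DKO and 2 AnkGKO libraries of the 11 bulk poly(A) RNA-seq libraries of the series, and 17557 of the 22609 listed genes had at least 10 counts over all libraries and were tested. AnkGKO mice were Pcp2-Cre;AnkGFx/Fx and DKO mice were Pcp2-Cre;NfascFx/Fx;AnkGFx/Fx, so both groups carried the Cre and the floxed Ank3 alleles and differed by label in the floxed Nfasc alleles. The 3 control mice were NfascFx/Fx;AnkGFx/Fx without Cre in the series design (the study's methods give single or double floxed alleles), and the 3 NFKO mice were Pcp2-Cre;NfascFx/Fx. All mice were untreated, of mixed sex and on a mixed C57BL/6J;129 background. The age is given as P30 in the sample descriptions and as P32 in the growth protocol. Pcp2-Cre acts in Purkinje cells, whereas the RNA came from whole dissected tissue labelled cerebellar hemisphere. A change within Purkinje cells would be diluted by the RNA of all other cells. The libraries compared held little RNA of the Purkinje gene Pcp2, as given below. In such bulk samples fewer cells of a type and less RNA per cell cannot be told apart.

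Nfasc encodes neurofascins, cell adhesion molecules of the L1 family, of which the neuronal NF186 form sits at the axon initial segment (AIS) and at nodes of Ranvier. Ank3 encodes Ankyrin G (AnkG), the scaffold that ties NF186, sodium channels and the spectrin cytoskeleton together at these sites. In Purkinje cells, AnkG is needed to build the AIS, and NF186 helps to hold it and to organize the basket cell pinceau that forms around it.

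Nfasc reached 717 and 953 CPM (counts scaled to a common library size) in the AnkGKO libraries and 559, 606 and 603 CPM in the DKO libraries. All DKO libraries were below both AnkGKO libraries, with a log2 fold change of -0.50 ± 0.10 (SE), but the gene did not pass the test (adjusted p = 0.137) and the second AnkGKO library set most of the gap. Without that library the log2 fold change was -0.28, and without the first AnkGKO library it was -0.69 with an adjusted p of 0.0167. Ank3 was at 156 and 200 CPM in AnkGKO and at 185, 160 and 174 CPM in DKO, against 353 to 375 CPM in control, so the groups overlapped (log2 fold change -0.04 ± 0.10, adjusted p = 0.941). Counts were summed over whole genes, so the floxed exons were not examined on their own.

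Gene counts totalled 47374325 and 47428701 in the AnkGKO libraries and 42362218 to 55822361 in the DKO libraries. Of the defining cerebellar markers, the Purkinje gene Pcp2 was at 0.103 to 0.374 CPM and the granule cell gene Gabra6 at 0.0217 to 1.61 CPM in these libraries, that is near 0, while 12 Hox genes of paralog groups 6 to 9 summed to 480 to 603 CPM. Pcp2 is also the gene whose promoter drives the Cre. Xist, transcribed in female cells, was at 0.598 and 0.413 CPM in AnkGKO and at 28.4, 459 and 469 CPM in DKO, and the Y-linked Ddx3y was at 103, 100.1 and 108 CPM in both AnkGKO libraries and DKO 1 and at 0.117 and 0.109 CPM in DKO 2 and DKO 3. Sex therefore moved with the genotype in 2 of the 3 DKO libraries, while DKO 1 carried both Xist and Ddx3y. Among the libraries outside this comparison, Xist was high in control 1 (464 CPM) and control 2 (598 CPM) and low in control 3 (0.43 CPM). All NFKO libraries had low Xist (0.34 to 1.39 CPM) and high Ddx3y (89.6 to 94.6 CPM). Most control and DKO libraries thus differed in Xist from all AnkGKO and NFKO libraries. The second DKO library also stood farthest from the other 4 over the 500 most variable genes (distances of 17.7 to 19.9, against 11.5 to 16.7 among the others) and held 96.1 CPM of 4 skeletal muscle markers, against 1.69 to 2.95 CPM in the rest.

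Between DKO and AnkGKO, 30 genes passed both an adjusted p under 0.05 and a change of 0.6 or more in size on the log2 scale (0.171% of the genes tested). Of these, 8 were higher in DKO (0.0456%) and 22 were lower (0.125%). Over all genes tested, 50.7% had a log2 fold change above 0. The 8 higher genes differed by a median of 2.51 on the log2 scale and the 22 lower genes by a median of 1.14 in size. In all 30 genes the 3 DKO and 2 AnkGKO libraries did not overlap, which also held for 23.7% of all genes tested. With no fold threshold 35 genes passed, and 1488 had an unadjusted p under 0.05. The count fell to 11 genes, 10 of them among the 30, when only the 5 libraries were fitted, and to 10 genes, 7 of them among the 30, with Xist as a covariate (Crb1, Ctse, Cwc22, D2hgdh, Mcm6, Rps3a and Slc13a3). Without DKO 2 it was 40 genes, 26 of them among the 30.

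**Figure D1:**
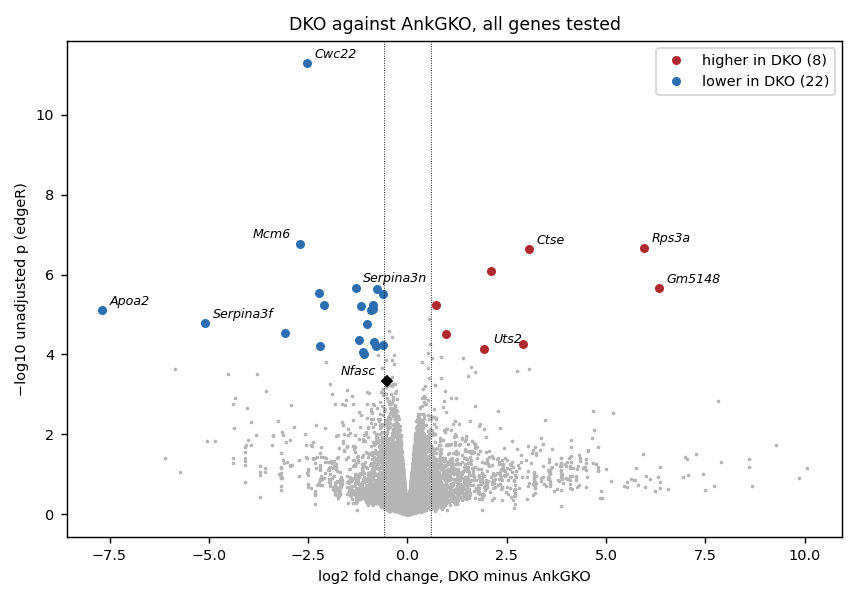
Each point is 1 of 17557 genes, with the log2 fold change of DKO minus AnkGKO on the x axis and −log10 of the unadjusted edgeR p on the y axis; dotted lines mark the fold threshold of 0.6. The 8 genes higher in DKO are red, the 22 lower genes are blue and Nfasc is a black diamond below them.

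Read against the other genotypes, the DKO libraries lay close to control for most of the 30 genes, and the AnkGKO libraries stood apart. In 29 of the 30 genes, all but Uts2, the DKO mean was nearer to the control mean on the log2 scale than the AnkGKO mean was. These 29 genes differed between DKO and control by a median of 0.21 in size and between AnkGKO and control by a median of 1.19; both values use the same control libraries. Against control, 19 of the 30 genes were called in AnkGKO (0.165% of all genes), 7 in NFKO (0.365%) and 1 in DKO (0.0228%). The 30 genes were chosen for a gap between the same AnkGKO and DKO libraries, so at least 1 of these groups had to differ from control. Nothing is therefore read from the AnkGKO and DKO counts or from the nearness of DKO to control. The share of all genes with DKO nearer to control was not counted. The AnkGKO libraries lay outside the range of all 9 other libraries in 22 of the 30 genes (3.82% of the genes tested, and 16.1% of those in which AnkGKO and DKO did not overlap). This grouping was made after the values were seen.

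**Figure D2:**
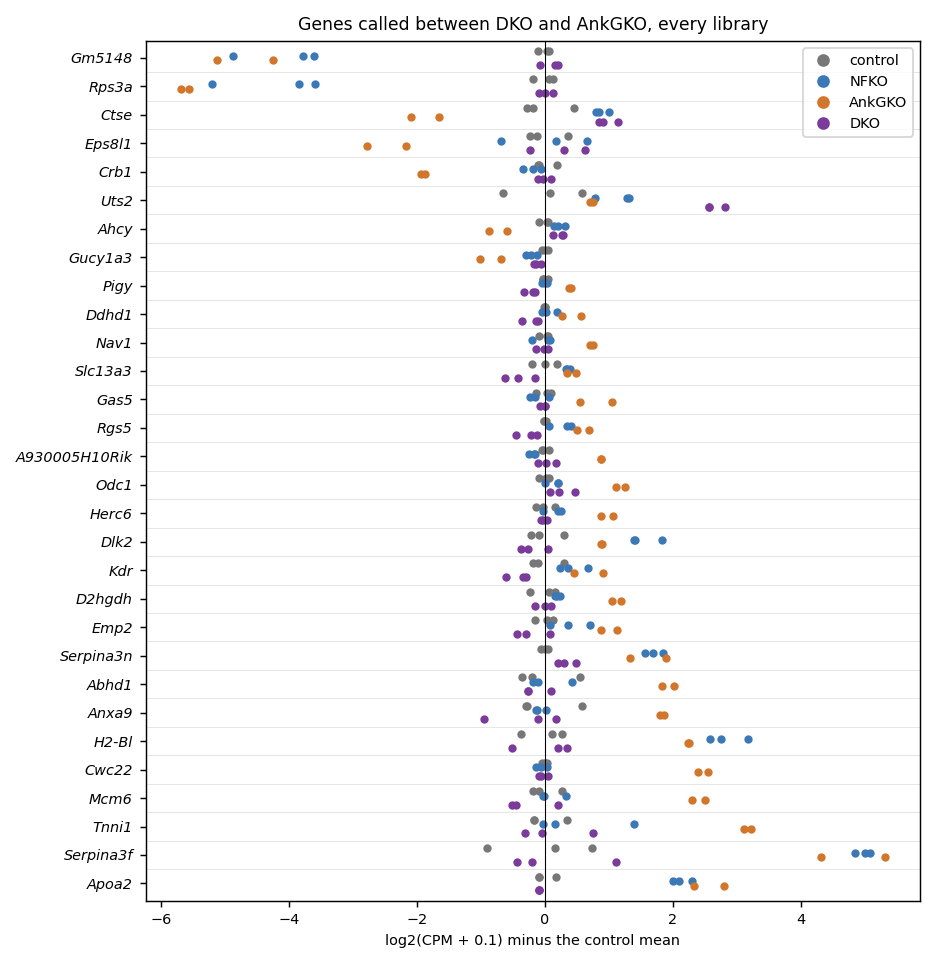
Each row is 1 of the 30 genes called between DKO and AnkGKO and each point 1 of the 11 libraries, as log2(CPM + 0.1) minus the control mean. In most rows the purple DKO points lie with the grey control points while the orange AnkGKO points lie apart, and in the Rps3a, Gm5148, Serpina3n, Serpina3f, H2-Bl, Dlk2 and Apoa2 rows the blue NFKO points lie on the AnkGKO side.

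In 19 of these 22 genes the NFKO libraries did not lie apart together with AnkGKO. The smallest p belonged to Cwc22, a splicing factor, which was at 51.0 and 56.7 CPM in AnkGKO and at 9.99, 8.99 and 9.25 CPM in DKO. Its 6 control and NFKO libraries lay between 8.71 and 9.91 CPM, so only the AnkGKO libraries stood out among the 11, and the AnkGKO level was 5.72 times that of DKO (log2 fold change -2.52 ± 0.09, adjusted p = 8.92e-08). Cwc22 (chr2:77711503-77776736, minus strand, GRCm39) shares 11.4% of the 50-base words of its transcripts with other annotated genes, led by the Cwc22rt copies, so its reads cannot be assigned to 1 copy with certainty. Mcm6, a subunit of the replicative DNA helicase, was at 9.16 and 7.95 CPM in AnkGKO and at 1.10, 1.77 and 1.04 CPM in DKO (-2.72 ± 0.25, adjusted p = 0.00101). Tnni1, the slow skeletal muscle troponin I, was at 8.31 and 7.73 CPM in AnkGKO and at 0.630, 1.42 and 0.783 CPM in DKO (-3.09 ± 0.45, adjusted p = 0.0228). The muscle markers did not follow it, since Acta1 was at 0.929 and 0.717 CPM in the same AnkGKO libraries and at 44.8 CPM in DKO 2.

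Abhd1, an alpha/beta-hydrolase domain gene, was at 9.74 and 11.1 CPM in AnkGKO and between 2.20 and 2.87 CPM in DKO (-2.10 ± 0.27, adjusted p = 0.00776). D2hgdh, the mitochondrial enzyme that oxidizes D-2-hydroxyglutarate, was at 8.79 and 7.97 CPM in AnkGKO and at 3.38 to 4.04 CPM in DKO (-1.16 ± 0.15). For both genes every DKO library fell within the control range and neither AnkGKO library did. Odc1, the first enzyme of polyamine synthesis, was at 23.8 and 26.5 CPM in AnkGKO against 11.7 to 15.3 CPM in DKO (-0.92 ± 0.12), and 13.6% of its 50-base words occur in other genes. Nav1, a microtubule-associated neuron navigator, was at 151 and 155 CPM in AnkGKO and at 95.8, 91.7 and 83.9 CPM in DKO (-0.76 ± 0.09, adjusted p = 0.00512). Gas5, a snoRNA host gene, was at 47.8 and 33.6 CPM in AnkGKO and at up to 23.1 CPM in DKO (-0.84 ± 0.14, adjusted p = 0.0335). The rest of this set that was lower in DKO held Emp2, a membrane tetraspan protein (-1.22 ± 0.19), the lncRNA A930005H10Rik (-0.86 ± 0.11), Pigy of glycolipid anchor synthesis (-0.61 ± 0.07), the annexin Anxa9 (-2.20 ± 0.36), the phospholipase Ddhd1 (-0.61 ± 0.10) and Herc6, given with the interferon genes.

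Among the genes higher in DKO, Crb1, a cell polarity protein, was at 0.454 and 0.478 CPM in AnkGKO and at 2.17, 1.98 and 1.87 CPM in DKO (2.10 ± 0.22, adjusted p = 0.00294). Gucy1a3, a soluble guanylate cyclase subunit that senses nitric oxide, was at 38.7 and 31.1 CPM in AnkGKO and at 56.6, 55.9 and 60.2 CPM in DKO (0.72 ± 0.09, adjusted p = 0.00776). Both genes were low in AnkGKO alone, with all 9 other libraries above. Eps8l1, a relative of the actin regulator Eps8, was at 0.681 and 0.413 CPM in AnkGKO and at 5.32, 2.90 and 4.20 CPM in DKO (2.91 ± 0.46, adjusted p = 0.0350), and it passed in only 8 of the 20 alternative fits. Ctse, the aspartic protease cathepsin E, was at 0.536 and 0.369 CPM in AnkGKO and at 4.34, 3.50 and 3.66 CPM in DKO (3.07 ± 0.29, adjusted p = 0.00101). Ctse was between these levels in control, at 1.56 to 2.66 CPM, and at 3.39 to 3.94 CPM in NFKO, so the NFKO and DKO libraries lay together above the control and AnkGKO libraries. Ahcy, which hydrolyses S-adenosylhomocysteine, showed the same order with 2.37 and 2.89 CPM in AnkGKO and 4.82 to 5.37 CPM in DKO (0.98 ± 0.15, adjusted p = 0.0236), but 60.3% of its 50-base words occur in other genes. Mrpl9 of the mitochondrial ribosome (0.55 ± 0.08) and Cd47, a surface signal against phagocytosis (0.56 ± 0.09), had adjusted p of 0.0125 and 0.0350 and missed the fold threshold, so they were not called.

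In 9 of the 30 genes the AnkGKO and NFKO libraries lay together, apart from both the control and the DKO libraries (1.45% of the genes tested, and 6.14% of those in which AnkGKO and DKO did not overlap). Xist was also low in every AnkGKO and NFKO library (0.34 to 1.39 CPM), as it was in control 3 (0.43 CPM). The part of sex in this pattern was not tested. Rps3a, a protein of the small ribosomal subunit, was at 0.371 and 0.413 CPM in AnkGKO and at 24.2, 22.8 and 26.4 CPM in DKO (5.96 ± 0.46, adjusted p = 0.00101). It was at 21.2 to 26.4 CPM in control and at 0.558 to 1.91 CPM in NFKO, so both single knockouts were low and the DKO libraries were at the control level. The symbol matches Rps3a1 (chr3:86045244-86050009, minus strand, GRCm39), which shares 38.5% of its 50-base words with other genes, and reads that matched several places were not counted. The predicted gene Gm5148, also on chromosome 3 (chr3:37767431-37778667), had 4 and 0 counts in AnkGKO and 162, 137 and 215 counts in DKO (6.34 ± 0.71, adjusted p = 0.00512), and its NFKO libraries were at 0.0193 to 0.186 CPM. With 1 library left out, the log2 fold change of Gm5148 ran from 5.42 to 10.4.

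Among the genes lower in DKO, Serpina3n, a secreted serine protease inhibitor of the acute phase and of reactive astrocytes, was at 270 and 184 CPM in AnkGKO and at 103, 89.7 and 84.2 CPM in DKO (-1.30 ± 0.14, adjusted p = 0.00512). It was at 217 to 264 CPM in NFKO and at 70.4 to 75.7 CPM in control. Serpina3f of the same chromosome 12 cluster was at 10.3 and 5.11 CPM in AnkGKO and at 0.467, 0.0934 and 0.127 CPM in DKO (-5.09 ± 0.63, adjusted p = 0.0156). Of the 7 Serpina3 genes tested, 3 had all DKO libraries below both AnkGKO libraries (11.3% of all genes) and 2 were called lower (0.125% of all genes). Serpina3i lay the other way without overlap and was not called, at 0.0206 and 0.0434 CPM in AnkGKO and 0.0933, 0.0934 and 0.0546 CPM in DKO, levels of a few counts. The third, Serpina3m, was at 10.6 and 4.93 CPM against 0.397, 0.0234 and 0 CPM but did not pass (-5.85 ± 0.96, adjusted p = 0.0838), and Serpina3g was at 2.06 and 1.28 CPM against 1.94, 5.37 and 1.98 CPM, with the groups overlapping. Serpina3f and Serpina3n share 10.4% and 3.30% of their 50-base words with other genes.

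The 250 bases before the canonical transcript starts of Serpina3n, Serpina3f and Serpina3g are shown because the genes are neighbouring copies and Serpina3n and Serpina3f, unlike Serpina3g, were high in the same libraries. They were read from GRCm39 at chr12:104372560-104372809 for Serpina3n, chr12:104180522-104180771 for Serpina3f and chr12:104202136-104202385 for Serpina3g, all on the plus strand, with matches to TTCNNNGAA, the palindromic letters bound by STAT factors, in capitals.
Serpina3n: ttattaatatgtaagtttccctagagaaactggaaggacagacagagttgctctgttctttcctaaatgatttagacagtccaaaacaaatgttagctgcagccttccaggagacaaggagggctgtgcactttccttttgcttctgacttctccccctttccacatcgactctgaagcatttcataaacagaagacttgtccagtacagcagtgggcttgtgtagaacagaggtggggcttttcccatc
Serpina3f: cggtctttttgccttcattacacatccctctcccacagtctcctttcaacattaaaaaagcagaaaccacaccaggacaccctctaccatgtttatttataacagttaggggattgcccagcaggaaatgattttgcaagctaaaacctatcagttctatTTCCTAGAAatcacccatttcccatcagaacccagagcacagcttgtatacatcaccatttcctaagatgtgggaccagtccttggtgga
Serpina3g: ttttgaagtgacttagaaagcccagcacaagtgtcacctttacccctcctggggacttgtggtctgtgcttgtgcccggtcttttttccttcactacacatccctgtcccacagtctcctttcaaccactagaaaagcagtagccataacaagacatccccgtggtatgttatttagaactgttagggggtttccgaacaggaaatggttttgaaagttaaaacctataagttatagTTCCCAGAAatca
The letters occur in the sequences of Serpina3f and Serpina3g and not in that of Serpina3n, so they did not separate the genes that were high in AnkGKO from Serpina3g, which was not. Of the 28 called genes with an annotated start, 2 (Crb1 and Serpina3f) held TTCNNNGAA in these 250 bases, against 6.72% of 16876 tested genes. The interferon-stimulated response element was in 1 of the 28 (Eps8l1; 3.08% of all), CACGTG in 2 (Crb1 and Gm5148; 7.13%) and TGACGTCA in 0 (1.82%), on either strand.

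H2-Bl, an MHC class I-like gene, was at 11.1 and 11.2 CPM in AnkGKO and at 2.92, 1.56 and 2.62 CPM in DKO (-2.23 ± 0.26, adjusted p = 0.00533), with 14.0 to 21.2 CPM in NFKO and 1.73 to 2.74 CPM in control. MHC class I genes are near copies of each other, and H2-Bl had no match in the annotation. Apoa2, an apolipoprotein of high-density lipoprotein, had 31 and 20 counts in AnkGKO and 0 counts in all 3 DKO libraries (adjusted p = 0.00805), which is at least 8.28-fold lower when DKO is set at 3 counts per library. Dlk2, a Notch-ligand-like membrane protein, was at 9.49 and 9.62 CPM in AnkGKO and at 3.92 to 5.30 CPM in DKO (-1.09 ± 0.19, adjusted p = 0.0484), and it was higher still in NFKO at 13.6 to 18.4 CPM. Slc13a3, a sodium-coupled dicarboxylate transporter, was at 53.7 and 59.2 CPM in AnkGKO and at 27.3, 38.1 and 31.6 CPM in DKO (-0.80 ± 0.13, adjusted p = 0.0358).

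Uts2 was the only called gene in which DKO was farther from control than AnkGKO was. It encodes the peptide urotensin 2, made by motor neurons of the brain stem and spinal cord. It was at 6.23 and 6.41 CPM in AnkGKO and at 22.8, 27.0 and 22.8 CPM in DKO, a 3.83-fold difference (log2 fold change 1.94 ± 0.30, adjusted p = 0.0393). Control libraries were at 2.36 to 5.67 CPM and NFKO libraries at 6.53 to 9.49 CPM, so the DKO libraries were the 3 highest of the 11 without overlap. Uts2 passed in 10 of the 20 alternative fits, among them that on the 5 libraries alone (adjusted p = 0.00269), and not without DKO 2 or with Xist as a covariate. Of the 22 tested genes of cholinergic motor neurons, 17 were above 0, with a median of 0.19 (-0.066 without AnkGKO 1 and 0.70 without AnkGKO 2), and Uts2 was the only one called by edgeR; summed, 5 motor neuron markers were at 214 and 463 CPM in AnkGKO and at 377 to 405 CPM in DKO. An exon of Uts2 (chr4:151081539-151086267, plus strand) overlaps the opposite-strand clock gene Per3, itself at -0.56 ± 0.14 and not called (adjusted p = 0.310). The libraries were strand-specific, but whether counting used the strand is not given in the sources used here.
The 250 bases before the Uts2 start (chr4:151081289-151081538, plus strand, GRCm39) are shown because Uts2 was the called gene in which DKO lay farther from control, and they are without capitals because none of the 4 motifs occurs in them.
Uts2: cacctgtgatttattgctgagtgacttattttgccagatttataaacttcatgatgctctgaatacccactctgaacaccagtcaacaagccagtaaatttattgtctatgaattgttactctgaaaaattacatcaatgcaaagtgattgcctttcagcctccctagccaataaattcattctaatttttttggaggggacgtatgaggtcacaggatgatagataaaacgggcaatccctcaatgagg

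Nfasc lies on chromosome 1 (chr1:132492428-132669564, minus strand), and called genes were frequent around it. Of 179 tested genes within 20 Mb of Nfasc, 5 were called (2.79%, against 0.171% of all genes), namely Mcm6, Ctse, Nav1, Tnni1 and Crb1. They lay from 4.31 Mb before to 6.63 Mb after the middle of Nfasc, 2 higher and 3 lower in DKO, and the median over the 179 genes was -0.04. An unadjusted p under 0.05 was seen for 16.8% of the 179 genes and for 8.48% of all genes. Of 373 tested genes within 20 Mb of Ank3 on chromosome 10, 0 were called by edgeR or DESeq2 and 28 (7.51%) had an unadjusted p under 0.05. Chromosome 1 held 9 of the 28 called genes with a position among 1040 tested (0.865%), the other 4 being D2hgdh, Gas5, Rgs5 and Apoa2. The allele of this region that each mouse carried was not analysed here, and the part of the mixed background in these differences was not tested.

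**Figure D3:**
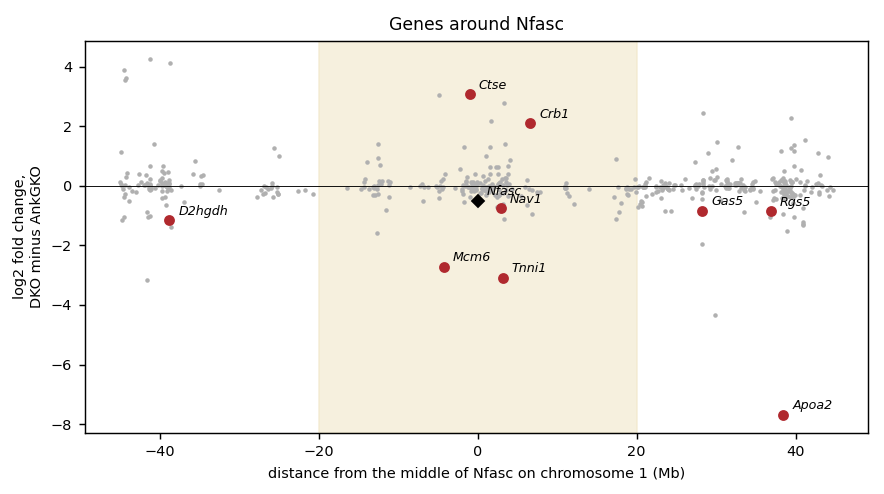
Points are tested genes on chromosome 1, with the distance from the middle of Nfasc in Mb on the x axis and the log2 fold change of DKO minus AnkGKO on the y axis; the shaded band is 20 Mb on either side. The called genes (red) inside the band are Mcm6, Ctse, Nav1, Tnni1 and Crb1, and Nfasc is the black diamond.

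The effect of targeting Nfasc with Ank3 deleted was then tested against its effect with Ank3 intact, as the difference between DKO minus AnkGKO and NFKO minus control, which share no library. This interaction called 93 genes (0.530% of the genes tested), 37 of them positive and 56 negative, and it called 23 of the 30 genes above. The 30 genes were chosen on DKO minus AnkGKO, which is itself a term of this contrast. Much of that overlap was therefore built in, and it is no separate support. In 21 of the 30 genes the 2 effects had opposite signs. The share over all genes tested was not counted, so nothing is read from this count. The pairs were -4.16 and 5.96 for Rps3a, 1.71 and -1.30 for Serpina3n, 5.48 and -5.09 for Serpina3f, 2.89 and -2.23 for H2-Bl and 1.55 and -1.09 for Dlk2, NFKO minus control first. For Cwc22, Mcm6 and Abhd1 the first value was near 0, at -0.06, 0.11 and 0.02. For Uts2 both were positive, at 1.09 and 1.94, and the interaction did not pass (0.85, adjusted p = 0.492). With Xist as a covariate the interaction called 19 genes, 15 of them among the 93, and 8 of the 23. Xist was high in DKO 2, DKO 3, control 1 and control 2 and low in every AnkGKO and NFKO library. A sex difference would therefore add up across the 2 terms of the interaction and not cancel. Apart from the fit with Xist, the part of sex was not tested. The control and NFKO libraries that enter the interaction also differed by replicate number in cerebellar markers. Pcp2 was at 26.3, 1.43 and 0.167 CPM in control and at 28.3, 2.14 and 0.0929 CPM in NFKO, and Gabra6 at 84.2, 4.41 and 0.0952 CPM and at 59.0, 4.24 and 0.0186 CPM, so replicate 1 of both genotypes held the most. With control 1 and NFKO 1 both left out, an alternative chosen after seeing the data, the interaction called 42 genes, all among the 93, and 13 of the 23. The replicate block called 75 genes, 69 of them among the 93, and 21 of the 23; Ctse (adjusted p = 0.0510) and Pigy (adjusted p = 0.0603) were lost.

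**Figure D4:**
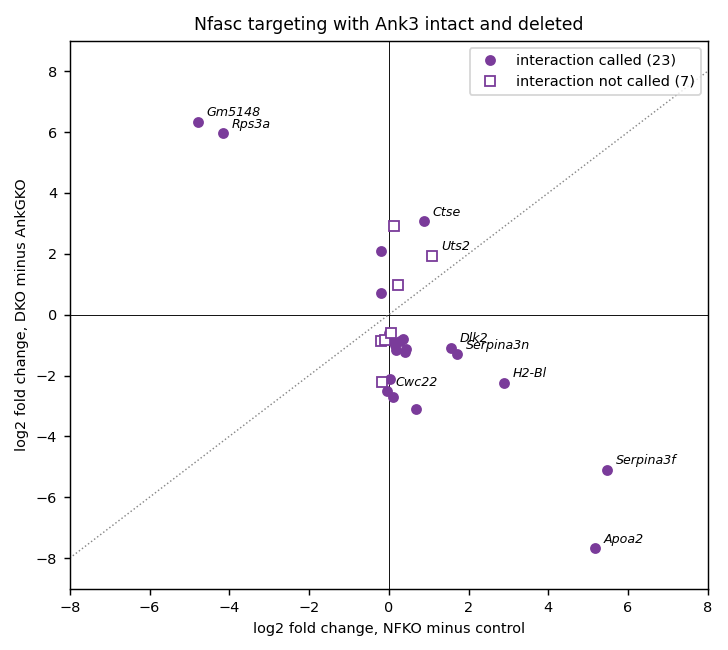
Each point is 1 of the 30 genes called between DKO and AnkGKO, with the log2 fold change of NFKO minus control on the x axis and of DKO minus AnkGKO on the y axis; the dotted line marks equal effects. Filled circles are the 23 genes called in the interaction and open squares the other 7, and Rps3a, Gm5148, Serpina3n, Serpina3f, H2-Bl, Dlk2 and Apoa2 lie in the corners of opposite sign.

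Genes of the vessel wall were mostly lower in DKO than in AnkGKO. Of 14 pericyte and smooth muscle genes, 13 were below 0 with a median of -0.27 against 0.00 over all genes, and 42.9% had all DKO libraries below both AnkGKO libraries, against 11.3% of all genes. In edgeR only Rgs5, a pericyte regulator of G-protein signalling, was called, at 54.3 and 62.3 CPM in AnkGKO and 28.1, 35.3 and 33.0 CPM in DKO (-0.86 ± 0.11, adjusted p = 0.00805). Pdgfrb, the platelet-derived growth factor receptor of pericytes, was at 47.3 and 46.8 CPM against 34.7 to 37.6 CPM and did not pass (-0.36 ± 0.10, adjusted p = 0.343). The pericyte median was -0.18 without AnkGKO 1 and -0.46 without AnkGKO 2. Of 30 endothelial and barrier genes, 25 were below 0 with a median of -0.14. In edgeR only Kdr, the main VEGF receptor of endothelium, was called, at 29.6 ± 6.5 CPM (SD, n = 2) in AnkGKO and at 11.9, 14.8 and 14.4 CPM in DKO (-1.11 ± 0.19, adjusted p = 0.0460). Kdr passed in 7 of the 20 alternative fits. The chemokine Cxcl12 (-0.86 ± 0.20, adjusted p = 0.271) did not pass in edgeR but was called by DESeq2, and the tight junction gene Cldn5 was at -0.09 ± 0.22. The 4 endothelial markers summed to 180 and 189 CPM in AnkGKO and to 143 to 172 CPM in DKO, and 0 of the 4 were called by edgeR or had an unadjusted p under 0.05. Of 26 cell-matrix adhesion genes, 22 were below 0 with a median of -0.18 (-0.12 without AnkGKO 1); 3 had an unadjusted p under 0.05 and 0 were called by edgeR or DESeq2, Itga6, an integrin subunit, having the smallest p (-0.44 ± 0.09, adjusted p = 0.159).

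Interferon response genes were also mostly lower in DKO. Of 35 tested, 30 were below 0 with a median of -0.34, and 12 had all DKO libraries below both AnkGKO libraries (34.3%, against 11.3% of all genes). Herc6, the ligase that attaches the ubiquitin-like ISG15 in mice, was the 1 member called by edgeR, at 7.90 and 9.08 CPM in AnkGKO and at 4.11, 4.39 and 4.17 CPM in DKO (-1.01 ± 0.15, adjusted p = 0.0156). Isg15 itself was at 2.54 ± 0.24 CPM (SD, n = 2) in AnkGKO and at 1.24, 1.75 and 1.07 CPM in DKO and did not pass in edgeR (-0.91 ± 0.24, adjusted p = 0.322), nor did Ifit3, an interferon-induced antiviral protein (-0.75 ± 0.21, adjusted p = 0.379), or the ISG15 protease Usp18 (-0.93 ± 0.26), while DESeq2 called Isg15 and Ifit3 beside Herc6. With 1 library left out, Ifit3 ranged from -1.04 to -0.39. Over the interferon list the median of NFKO minus control was 0.49. Of 18 antigen presentation genes 16 were above 0 with a median of 0.25 (0.084 without AnkGKO 2 and 0.10 without DKO 2). The 2 below 0, H2-Bl and Nlrc5, a transactivator of MHC class I genes, were the only members with an unadjusted p under 0.05. Nlrc5 was at 2.74 and 2.54 CPM in AnkGKO and at 1.14, 1.96 and 1.37 CPM in DKO and did not pass (-0.83 ± 0.24, adjusted p = 0.419). The 4 microglia markers summed to 254 and 257 CPM in AnkGKO and to 216 to 284 CPM in DKO.

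**Figure D5:**
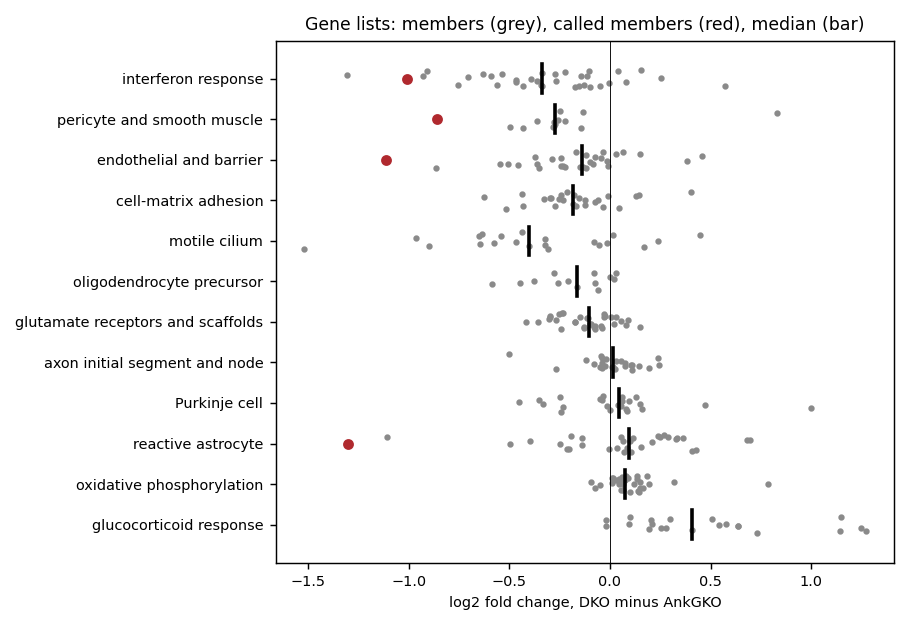
Each grey point is a tested member of the gene list named on the y axis, at its log2 fold change of DKO minus AnkGKO on the x axis; red points are called members and black bars list medians. The interferon, pericyte and motile cilium medians lie at -0.34, -0.27 and -0.40, and the axon initial segment and Purkinje medians lie at 0.01 and 0.05.

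In other lists most members lay on one side of 0, without calls in edgeR. Of 21 tested motile cilium genes, 17 were below 0 with a median of -0.40 (-0.26 without AnkGKO 1), led by Spag17, a central-pair axoneme protein, at 0.621 ± 0.17 CPM (SD, n = 2) in AnkGKO and 0.210, 0.257 and 0.182 CPM in DKO (-1.52 ± 0.34, adjusted p = 0.188). The 3 ependymal markers summed to 43.8 and 55.3 CPM in AnkGKO and to 44.8 to 52.9 CPM in DKO. Of 34 glutamate receptor and scaffold genes, 27 were below 0 with a median of -0.10 (-0.060 without DKO 2), and of 13 oligodendrocyte precursor genes 10 were below 0 with a median of -0.16 (-0.28 without AnkGKO 1). Of 21 glucocorticoid response genes, 19 were above 0 with a median of 0.41, which was 0.076 without DKO 1 and 0.61 without DKO 3. Sgk1, a kinase induced by glucocorticoids, was at 100.0 and 167 CPM in AnkGKO and at 489, 271 and 125 CPM in DKO, so DKO 1 carried the highest level and DKO 3 lay between the AnkGKO libraries (1.14 ± 0.58, adjusted p = 0.634). Of 31 oxidative phosphorylation genes, 28 were above 0 with a median of 0.08 (0.12 without AnkGKO 1). None of these 5 lists had a called member in edgeR, where 8, 4, 4, 2 and 3 members had an unadjusted p under 0.05, and DESeq2 called Spag17 alone. All 15 skeletal muscle genes were above 0 with a median of 4.24 (0.13 without DKO 2), none was called by either tool or had an unadjusted p under 0.05, and their sum was 377 CPM in DKO 2 and 97.2 to 114 CPM in the other 4 libraries.

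Genes of the AIS and of Purkinje cells had medians near 0. Of 25 tested AIS and node genes, 14 were above 0 with a median of 0.01, 0 were called by edgeR or DESeq2, and Nfasc and the dynein regulator Ndel1 were the 2 members with an unadjusted p under 0.05. Of 24 Purkinje genes, 14 were above 0 with a median of 0.05 and 0 were called by edgeR or DESeq2 or had an unadjusted p under 0.05, at the low Pcp2 level given above. Homeostatic and activated microglia genes had medians of -0.05 and -0.09 over 26 and 23 genes, central myelin genes -0.04 over 17, sodium and potassium channels -0.02 over 36 and synaptic vesicle genes 0.01 over 28. In edgeR 0 of these were called, 2, 4, 2, 1 and 1 had an unadjusted p under 0.05, and DESeq2 called Ccl3, a chemokine of the activated microglia list. With 1 library left out, the AIS, Purkinje, channel and vesicle medians stayed between -0.087 and 0.085 and the microglia and myelin medians between -0.18 and 0.098, each taking both signs. Reactive astrocyte genes were split, with 21 of 32 above 0 and a median of 0.09 that ranged from -0.13 without AnkGKO 2 to 0.33 without AnkGKO 1. In edgeR Serpina3n alone was called, and DESeq2 also called S100a10, an annexin A2 partner, which was higher in DKO (0.69 ± 0.22, edgeR adjusted p = 0.487). None of the 9 genes named in the study for this comparison was called by edgeR or DESeq2, and 1 had an unadjusted p under 0.05. This was Chi3l1, a secreted chitinase-like glycoprotein, at 34.3 and 36.6 CPM in AnkGKO and at 40.8, 49.1 and 51.0 CPM in DKO without overlap (0.41 ± 0.10, adjusted p = 0.27). The microglial receptor Il10ra was at 0.25 ± 0.14, the RNA editing relative Adarb2 at -0.33 ± 0.18, the phosphatase Ptpn4 at -0.30 ± 0.26 and the sodium/calcium exchanger Slc8a1 at -0.18 ± 0.13. The ubiquitin ligase Ube3a was at -0.15 ± 0.14, the calcium/calmodulin kinase Camk4 at 0.09 ± 0.54 and the calcium pump Atp2b4 at -0.04 ± 0.15.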

How the data were processed

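Per the labels, total RNA was poly(A)-selected, made into strand-specific libraries and sequenced on an Illumina NovaSeq. The authors' processing notes name Trimmomatic 0.39, STAR 2.7.11a and GRCm39, and they deposited raw counts per gene for the 11 libraries. The 5 summary rows were dropped (not uniquely aligned reads equalled 32.5 to 33.5% and reads in no feature 9.47 to 10.4% of these libraries). A second deposited table of normalized values was not used here. Counts of all 11 libraries, for genes with at least 10 counts in total, were fitted with edgeR 4.0.16 in R 4.3.3 (TMM scaling, robust quasi-likelihood, 1 mean per genotype) and DKO was contrasted with AnkGKO. All genotypes shared 1 estimate of the spread, since AnkGKO had 2 libraries. Adjusted p are Benjamini-Hochberg values over 17557 genes, and SE follow from the quasi-likelihood F. CPM use TMM-scaled totals, and 3 counts equal 0.0546 to 0.0701 CPM. Alternatives included DESeq2 1.42.0, other filters and scaling, covariates and left-out libraries. The fit was tested on simulated data. Deviations from the group means over the 500 most variable genes correlated at 0.570, 0.306 and 0.301 between same-number control and NFKO libraries. Between same-number NFKO and DKO libraries they correlated at 0.109, 0.422 and 0.117, while unlike numbers ranged from -0.321 to 0.225. Any such pairing rests on the data, since the labels give only the number. Symbols were matched to GENCODE M39 on GRCm39 for 18191 genes directly and 2204 through synonyms, and 2214 had no match. The gene lists and members were chosen with earlier results of these data known. Named were Nfasc, Ank3, the study's genes, up to 15 called genes a direction by p (filled to 10), leading list members and genes of the interaction. Anxa9 and Ddhd1 were called outside that rule. Labels give separate mice as biological replicates and 1 batch.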

Additional observations from a re-analysis of the deposited data

Results flagged for a closer look

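The effect of targeting Nfasc differed between mice with Ank3 deleted and mice with Ank3 intact for 93 genes, by the edgeR test of the difference itself. Sex markers also differed between the genotypes, and with Xist as a covariate 19 genes were called. For genes named above, a negative difference was found for Serpina3n (-3.01), Serpina3f (-10.57), Serpina3m (-11.01), H2-Bl (-5.12) and Dlk2 (-2.64), where the NFKO libraries were above control and the DKO libraries below AnkGKO. Rps3a (10.12) and Gm5148 (11.13) had the opposite order. The value for Apoa2 (-12.86) is a fitted one that rests on libraries at 0 counts and is no bound. Genes near Nfasc on chromosome 1 were Mcm6 (-2.82), Tnni1 (-3.78), Nav1 (-0.74), Ctse (2.20) and Crb1 (2.30). Differences in the same direction as in DKO minus AnkGKO were also found for Cwc22 (-2.46), Abhd1 (-2.13), D2hgdh (-1.35), Odc1 (-1.07), Slc13a3 (-1.15), Emp2 (-1.62), Pigy (-0.61), Gucy1a3 (0.93), Mrpl9 (0.61) and Cd47 (0.96). The vascular genes Kdr (-1.54), Rgs5 (-1.14) and Pdgfrb (-0.73), the integrin Itga6 (-0.69), and the interferon response genes Herc6 (-1.15) and Ifit3 (-1.61) were lower by this test as well. All values are differences of 2 log2 fold changes. Of the 29 genes given here, 24 passed with the replicate block and 15 with control 1 and NFKO 1 both left out. With Xist as a covariate 9 of the 29 passed and 20 did not.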

How the results depend on the processing

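The number of genes called between DKO and AnkGKO depended on the fit. DESeq2 called 99 (37 higher and 62 lower in DKO, all 30 included) and 314 in the interaction. With only the 5 libraries 11 genes were called (4 higher and 7 lower), and with Xist as a covariate 10 (5 higher and 5 lower), with 19 in the interaction. A fold threshold of 1 left 14 lower genes. DESeq2 size factors, other filters and a granule marker covariate called 25 to 33. With control 1 and NFKO 1 both left out, chosen after seeing the data, 20 genes were called (6 higher and 14 lower) and 42 in the interaction. Leaving out 1 library at a time gave 13 to 40 genes (4 to 12 higher, 7 to 28 lower) and 54 to 103 in the interaction: 16 without AnkGKO 1, 14 without AnkGKO 2, 18 without DKO 1 and 13 without DKO 3, and for the interaction 58 without control 1 and 61 without DKO 3. The lone AnkGKO library was then assumed to vary like the other groups. Nfasc ranged from -0.69 to -0.28 in these fits, and DESeq2 gave it an adjusted p of 0.000479 below the fold threshold. Cwc22, Mcm6, Rps3a and Ctse passed in all 20 alternative fits, Kdr and Dlk2 in 7.

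Labelled replicate numbers were tried as a replicate block, which called 30 genes (7 higher, 23 lower, 27 of them among the 30) and 75 in the interaction. The 2 possible pairs of AnkGKO and DKO correlated at 0.199 and 0.0115. The deviations of the 2 AnkGKO libraries from their mean mirror each other, so these values cannot show whether the samples were paired. In the interaction the block also lost Itga6 (adjusted p = 0.0595), Mrpl9 (0.0652) and Pdgfrb (0.0551) among the genes named.

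Directions turned for genes that were not called. With Xist as a covariate Camk4 was at -0.28, Ube3a at 0.12, Slc8a1 at 0.0039 and Atp2b4 at 0.0098. Over the fits without 1 library, Ank3 ranged from -0.21 to 0.15, Camk4 from -0.11 to 0.32, Atp2b4 from -0.19 to 0.12 and Cldn5 from -0.31 to 0.058. The turned values were 0.15 for Ank3 and -0.11 for Camk4 without AnkGKO 2; without AnkGKO 1, Atp2b4 was at 0.12 and Cldn5 at 0.021; without DKO 1, Camk4 was just below 0 and Cldn5 at 0.058; and without DKO 2, Ank3 was at 0.015 and Atp2b4 at 0.030. The causes were not tested. Genes with few counts, such as Apoa2, Gm5148 and Serpina3f, are limited by depth.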
